A study of Homo sapiens with 9 samples.

Results

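Examined here were 1567 promoter regions of the human hepatoma line HepG2 with an ATAC-seq peak in cells given a control siRNA and in neither of the lists made after siRNA against INO80. They were chosen by the presence of a peak of the NTG list and its absence from both siINO80 lists, within 1 kb either side of the start of a protein-coding transcript (GENCODE release 44 on GRCh37, called a coding start below). The peaks of the 3 lists on chromosomes 1 to 22 were merged into 109960 regions where they overlapped. Of these, 14679 reached a coding start window and are called promoter regions, so the chosen set made up 10.7% of them. The regions found in the siINO80#1 list alone (1320, or 8.99%) and in the siINO80#2 list alone (458, or 3.12%) were chosen by the mirror image of the same rule and serve as the comparison. A further 330 promoter regions had a peak with each INO80 siRNA but none in NTG, and 9392 were in all 3 lists.

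ATAC-seq reads out open chromatin by the insertion of sequencing adapters with a transposase. Cells were harvested 72 h after transfection with siRNA at 50 nM. The siRNA was either a non-targeting one (NTG) or directed at INO80, for which 2 were used, siINO80#1 and siINO80#2. All 9 samples were of the same line and had been transfected with an siRNA, and each of the 3 groups held 3 replicates. One list was deposited per siRNA, so the lists hold no value per replicate and no test between groups was made here. The labels give no level of INO80 after transfection, and the knockdown could not be examined in these lists. Every interval given is a 95% interval for counting error, by Wilson's method for a share and Newcombe's for a difference between shares. It treats regions as independent.

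Promoters are the stretches around transcription starts where the transcription machinery assembles, and in open form they are depleted of nucleosomes. Many human promoters are rich in the dinucleotide CpG and are open in most cell types. Others are poor in CpG and are often used in particular tissues. INO80 is the motor subunit of a remodeling complex that slides nucleosomes and exchanges histone variants. In hepatocytes, factors such as HNF4A and FOXA act at promoters and enhancers of genes for plasma proteins and metabolism.

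The 3 lists differed in size and depth. On chromosomes 1 to 22 they held 68784 intervals for NTG, 68344 for siINO80#1 and 52399 for siINO80#2. The number of reads was not given. It was inferred from the lowest background of each list, divided by the width of its shortest interval (148 bp for NTG, 140 for siINO80#1 and 144 for siINO80#2). By this measure siINO80#1 had 1.43 times the reads of NTG and siINO80#2 had 1.44 times. These ratios rest on the formulas of the peak caller MACS2 and on the shortest width standing for the fragment length. The sizes of the classes depended on these properties. With each list cut to its 52399 strongest intervals, the NTG-only promoter regions numbered 978, those of siINO80#1 alone 763 and those of siINO80#2 alone 840, which turned the order of the siINO80 classes. With a −log10 q of at least 5 in every list the numbers were 805, 758 and 136. Fewer peaks in 1 list and a different depth of that list cannot be told apart, and their part in the results was not tested. The label HepG2 was examined by hepatocyte markers: 17 of 19 had a peak at a coding start in NTG, 18 in siINO80#1 and 15 in siINO80#2. Of 25 markers of other cell types, 4, 6 and 5 had one.

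CpG-rich and CpG-poor starts both occurred in the NTG-only set, and stretches at both are printed here. The first 3 stretches below are the strongest members by fold enrichment at CpG-rich starts and the next 3 the strongest at CpG-poor starts, among regions of genes with no siINO80 peak at a coding start. Regions were passed over where the summit lay more than 250 bp from the start, where its 31 bases occurred at more than 1 place, on 1 chromosome from which no sequence is printed, or where annotated exons left too short a stretch around it. Fold enrichment is the reads at the peak's summit over the local background of the same list. A start was called CpG-rich where the 1001 bp around it had a GC content of at least 50% and an observed over expected CpG ratio of at least 0.6. Each stretch is read 5′ to 3′ on the strand of the gene from the GRCh37 (hg19) genome, around the summit and outside annotated exons, with every CG in capitals.
YIPF1, chr1:54355524-54355644, minus strand: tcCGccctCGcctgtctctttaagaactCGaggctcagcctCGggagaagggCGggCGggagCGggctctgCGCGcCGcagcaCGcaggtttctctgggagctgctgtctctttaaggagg
OSCP1, chr1:36916053-36916147, minus strand: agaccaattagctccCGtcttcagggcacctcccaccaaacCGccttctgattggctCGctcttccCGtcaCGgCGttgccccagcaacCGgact
ADARB2, chr10:1779745-1779865, minus strand: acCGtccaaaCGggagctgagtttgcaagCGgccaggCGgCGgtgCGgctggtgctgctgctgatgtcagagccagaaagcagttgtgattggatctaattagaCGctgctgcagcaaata
SLC38A4, chr12:47219781-47219858, minus strand: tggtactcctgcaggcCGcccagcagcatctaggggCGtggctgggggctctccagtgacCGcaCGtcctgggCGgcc
ACKR3, chr2:237478377-237478467, plus strand: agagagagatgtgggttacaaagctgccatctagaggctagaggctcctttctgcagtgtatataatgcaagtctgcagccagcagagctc
DYNLT5, chr1:67218047-67218141, plus strand: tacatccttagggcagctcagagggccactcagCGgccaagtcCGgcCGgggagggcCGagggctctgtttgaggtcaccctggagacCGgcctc

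The stretch at YIPF1, which encodes a membrane protein of the Golgi, held 11 CG words in 121 bases. That at ACKR3, which encodes a scavenging chemokine receptor, held 0 in 91. The stretch at OSCP1 held 7 CG words in 95 bases, against 5 in the 95 bases at DYNLT5. SLC38A4, at a CpG-poor start, held 5 in 78 bases, and ADARB2, at a CpG-rich start, 7 in 121. The stretches thus do not separate the classes. The CpG class is a property of the wider start and not of the stretch shown. At SLC38A4 and DYNLT5 the CpG ratio of the wider start was 0.599 and 0.562, not far below the limit of 0.6.

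The NTG-only promoter peaks were weak within their own list. Their median fold enrichment was 2.72 (quartiles 2.45 and 3.11), and the median number of reads at the summit was 19, over a median background of 5.94 reads. Reads ranged from 12, the fewest at any NTG summit, to 134. When fold enrichment was ranked within the NTG list, the median member stood at percentile 22. The promoter regions of all 3 lists had a median percentile of 82.5, a median fold enrichment of 5.68 and 44 reads. The NTG-only regions were also narrow, with a median of 234 bp against 997 bp for the regions of all 3 lists, which join peaks of several lists. These values are tied to the choice of the regions and were not tested.

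Promoter regions found in 1 siINO80 list alone were likewise weak within their own list. The median percentile was 20.1 and the median width 219 bp for siINO80#1 alone, with a median fold enrichment of 2.50 and 22 reads. For siINO80#2 alone they were 19.1, 205 bp, 2.53 and 20 reads.

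**Figure D1:**
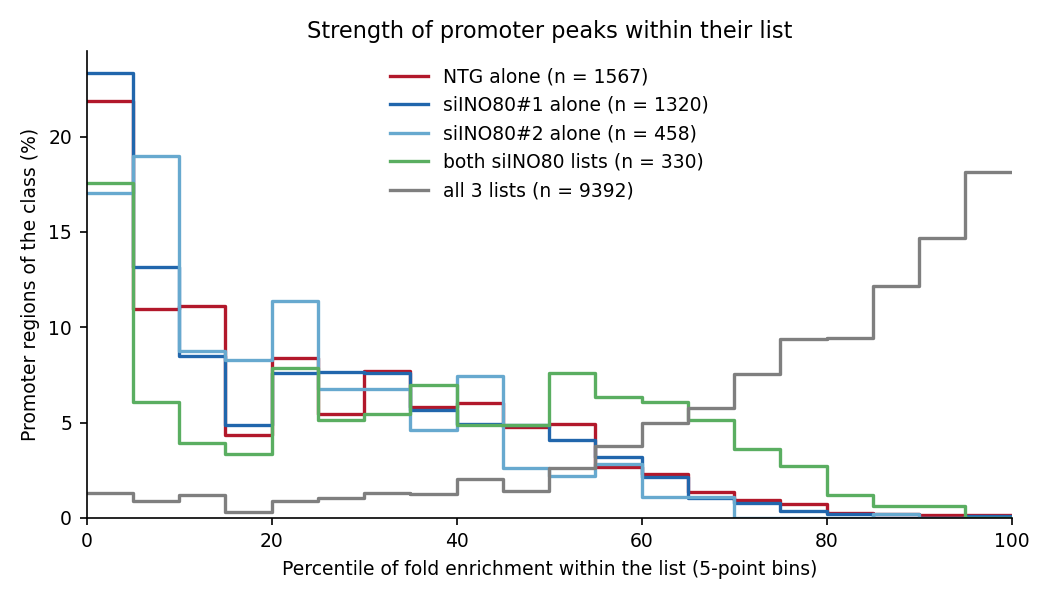
Share of promoter regions of each class (vertical axis, percent) in 5-point bins of the percentile of fold enrichment within the list (horizontal axis), each line being 1 class. The 3 classes found in 1 list pile up at the weak end, with medians of 22, 20.1 and 19.1, and the regions of all 3 lists at the strong end, with a median of 82.5.

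The share of NTG promoter regions without a siINO80 peak depended on strength in the NTG list. When NTG intervals were split into 10 classes of equal size by fold enrichment (deciles, 1 the weakest), the weakest decile held 1010 promoter regions, of which 515 (51.0%, 47.9 to 54.1) had no siINO80 peak. In decile 5 the share was 25.5% (169 of 663), and in decile 7 4.55% (57 of 1252). In the strongest decile it was 0.129% (4 of 3094). Those 4 regions lay at CDC27, E2F5, TES and GPR18 and are described below.

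**Figure D2:**
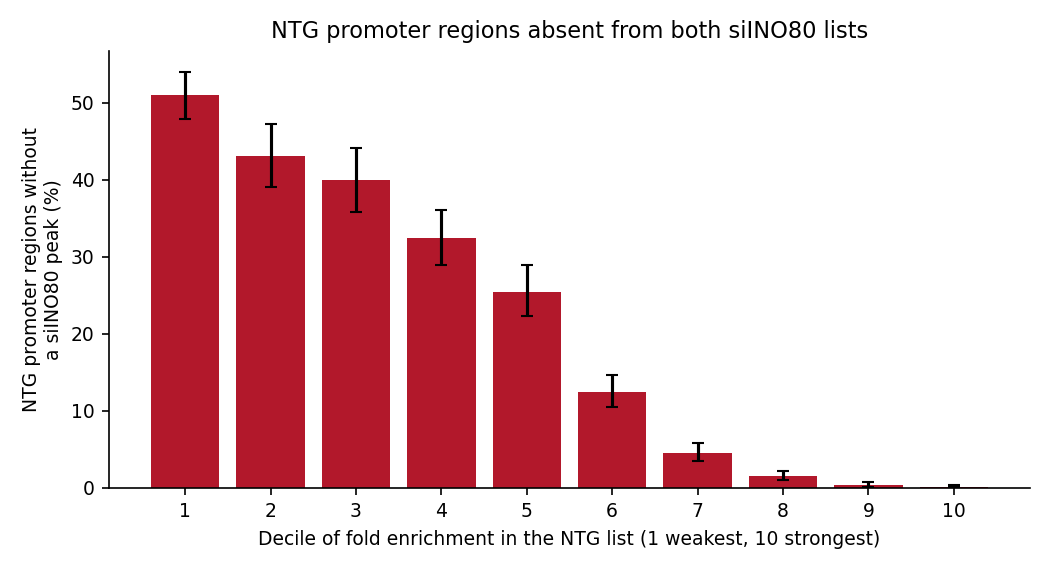
Share of NTG promoter regions with no peak in either siINO80 list (vertical axis, percent) by decile of fold enrichment in the NTG list (horizontal axis, 1 the weakest), with 95% Wilson intervals as error bars. The share is 51.0% in the weakest decile and 0.129% in the strongest.

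Absence of a siINO80 peak from the region did not mean absence from the gene. At 665 of the 1567 regions (42.4%, 40.01 to 44.9) the same start window also held a siINO80 peak that did not overlap the NTG peak. At 327 (20.9%, 18.9 to 22.9) another coding start of the gene had one. The remaining 575 (36.7%, 34.3 to 39.1) belonged to genes with no siINO80 peak at any coding start. Those with a siINO80 peak in either place made up 63.3%, a share that was 32.4% of the 805 regions left at a −log10 q of at least 5. The shares were 46.8%, 18.2% and 35.0% for regions of siINO80#1 alone, and 53.9%, 21.4% and 24.7% for those of siINO80#2 alone, where the other peak was of either remaining list. The median gap to the nearest peak of another list was 2255 bp for NTG alone, 1420 bp for siINO80#1 alone and 866 bp for siINO80#2 alone. For 462 NTG-only regions (29.5%, 27.3 to 31.8) this gap was within 500 bp, and for 495 (31.6%, 29.3 to 33.9) it exceeded 10 kb.

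Counted by gene, 1545 of 18893 genes with a coding start (8.18%) had an NTG-only region, against 1324 (7.01%) for siINO80#1 alone and 480 (2.54%) for siINO80#2 alone. The number with a peak at a coding start in NTG and in neither siINO80 list was 572 (3.03%). It was 469 for siINO80#1 with neither other list and 124 for siINO80#2. A further 163 genes had one with each INO80 siRNA but not with NTG, and 9749 had one in all 3 lists. Most genes with an NTG-only region had 1, whereas 116 had 2 or more and the most was 3. Windows of more than 1 gene held 100 of the regions, which therefore count for each of those genes. Outside coding start windows, 25333 of 95281 regions (26.6%) were in NTG alone, against 10.7% of promoter regions. The comparison classes were likewise mostly outside these windows. Promoter regions made up 5.83% of all regions of NTG alone, 5.55% of siINO80#1 alone and 3.52% of siINO80#2 alone, against 32% of those of all 3 lists.

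The strongest NTG-only promoter peak was at CDC27, which encodes a subunit of the anaphase-promoting complex. It lay in an intron at chr17:45213910-45214312, 643 bp downstream of the nearest coding start, with a fold enrichment of 16.8 and 134 reads over a background of 7.02. Peaks of both siINO80 lists lay 210 and 213 bp away in the same window. The 31 bases at its summit occurred at 2 places in the genome, so reads there may be shared with a copy. E2F5, a transcription factor of the cell cycle, followed with 9.13 (43 reads) at chr8:86100733-86101162. TES, an adhesion protein, had 7.47 (35 reads) at chr7:115890120-115890273. Both genes had a siINO80 peak at another coding start. The nearest peaks of siINO80#1 and siINO80#2 lay 9960 and 10157 bp from the E2F5 peak and 10348 and 10336 bp from the TES peak.

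GPR18, a G protein-coupled receptor, had a fold enrichment of 7.22 (35 reads) at chr13:99913322-99913769. It was the strongest region with no siINO80 peak at any coding start of its gene. Its nearest siINO80 peaks were 45827 and 45867 bp away. SLC38A4, an amino acid transporter of the liver, had 6.85 (32 reads) at chr12:47219701-47219864, with the summit 18 bp upstream of the start and siINO80 peaks no nearer than 82026 bp. At both genes the NTG peak thus stood far from any siINO80 peak.

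Among the 10 strongest were also ZNG1B (6.64), PLEKHM1 (6.18), YIPF1 (6.001), HAS2 (5.64) and WIPF3 (5.58). PLEKHM1 encodes an adaptor of lysosome fusion and HAS2 a hyaluronan synthase. At ZNG1B a siINO80#2 peak lay 410 bp away in the same window, whereas the nearest siINO80#1 peak was 29519 bp away. PLEKHM1 had a siINO80 peak at another start. At YIPF1, HAS2 and WIPF3 no coding start had one. The nearest to HAS2 were 2443 and 2419 bp from the NTG peak and beyond the window.

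Next among regions of genes with no siINO80 peak at a coding start came OSCP1 (5.50), SLC14A1 (5.36), ZNF124 (5.23), ITGA8 (5.19) and FRMPD1 (5.18). SLC14A1 is a urea transporter, ITGA8 an integrin subunit and ZNF124 a zinc finger protein. The summits of OSCP1 and FRMPD1 lay within 35 bp of the start. That of SLC14A1 lay 1055 bp upstream, so that 21 bp of the region reached the window. ZNF124 had a siINO80#1 peak 2356 bp away and a second NTG peak farther upstream.

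**Figure D3:**
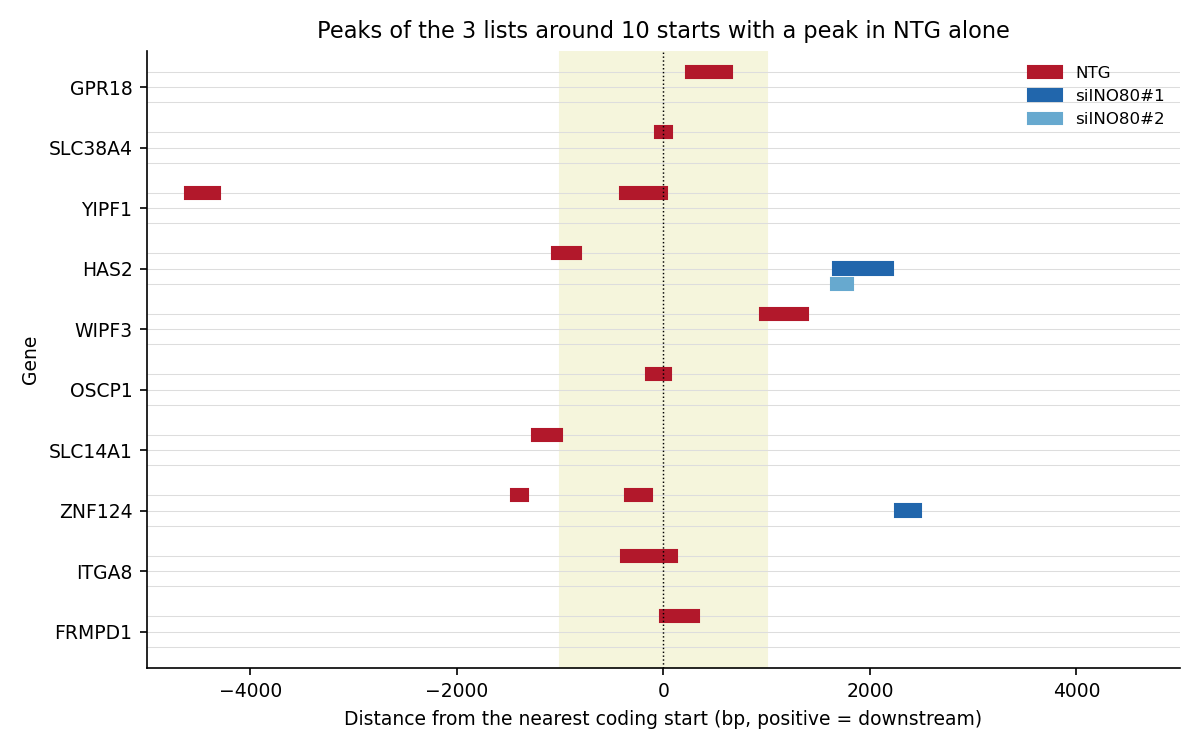
Peaks of the 3 lists (coloured boxes, 1 row per list) around the coding start nearest to the 10 strongest NTG-only promoter peaks of genes with no siINO80 peak at a coding start. The horizontal axis is the distance from the start in bp and the shaded band is the start window; within the 5 kb shown either side, HAS2 and ZNF124 have siINO80 peaks, all beyond the window.

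In the comparison classes, RABL2B, a small GTPase, had a fold enrichment of 8.93 (54 reads) in siINO80#1 alone at chr22:51221852-51222068, 11 bp from its start, and no peak of another list at a coding start. SOX6 (5.69) and EML1 (5.50) followed. In siINO80#2 alone they were PCCA (5.67), SOGA3 (4.06) and IL31RA (3.95). Within their own list, RABL2B, SOX6 and EML1 stood at percentiles 96.2, 84.5 and 83.2. PCCA, SOGA3 and IL31RA stood at 86.4, 69.6 and 67.9 within theirs. The lowest of the 10 strongest of NTG alone, WIPF3, stood at 81.6. These peaks come from different lists, and their values are set side by side without a comparison of signal.

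The summits of NTG-only regions were spread over the start window. Of the 1567 summits, 636 (40.6%, 38.2 to 43.0) lay within 250 bp of a coding start, against 78.4% (77.5 to 79.2) of promoter regions of all 3 lists, a difference of -37.8 percentage points (-40.3 to -35.2). The share was 47.9% for siINO80#1 alone, which differed from NTG alone by more than counting error (-7.29 points, -10.9 to -3.66). It was 36.2% for siINO80#2 alone, where the interval of the difference included 0 (4.34 points, -0.76 to 9.27). Upstream of the start lay 47.7% of NTG-only summits and 64.9% of those of all 3 lists.

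By annotation, 813 NTG-only summits (51.9%, 49.4 to 54.4) fell in introns, 266 (17.0%) in UTRs, 140 (8.93%) in coding exons, 102 (6.51%) in other exons and 246 (15.7%) between genes. Introns held 27.8% of the summits of all 3 lists, 45.8% of those of siINO80#1 alone and 54.4% of those of siINO80#2 alone. UTRs held 29.8% in all 3 lists. The distance to the start went with the tier of the gene. Of NTG-only summits whose window also held a siINO80 peak, 27.4% lay within 250 bp of the start. The share was 46.8% where another start had one and 52.3% where none had. In the same order it was 38.3%, 51.25% and 58.9% for siINO80#1 alone and 25.9%, 49.0% and 47.8% for siINO80#2 alone. The first tier was thus lowest in all classes found in 1 list.

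**Figure D4:**
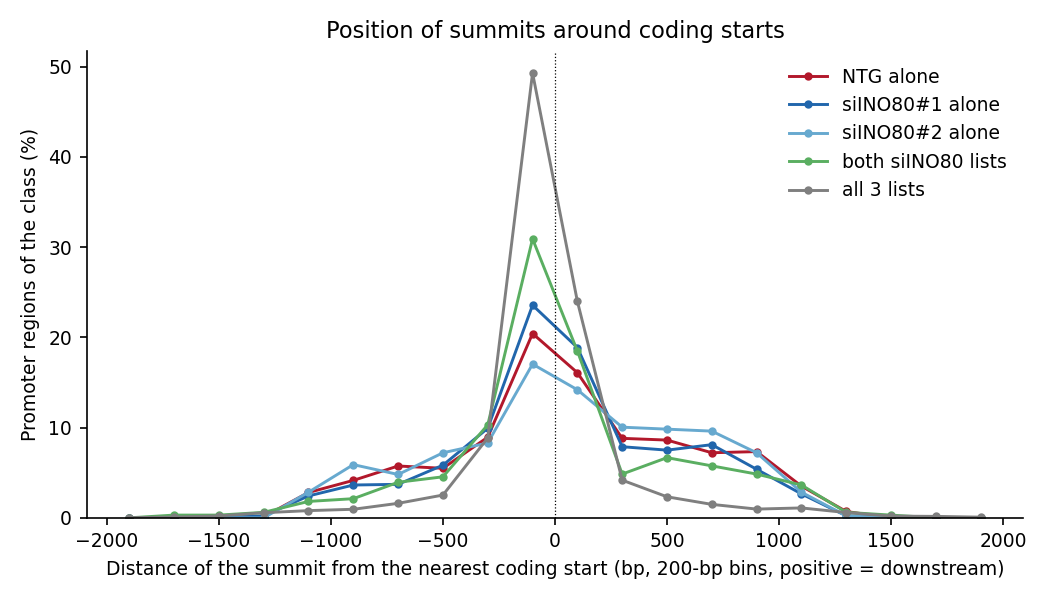
Share of promoter regions of each class (vertical axis, percent) by distance of the summit from the nearest coding start (horizontal axis, bp, 200-bp bins, positive downstream). All classes peak just upstream of the start, with 20.4% of NTG-only regions in that bin against 49.3% of the regions of all 3 lists.

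CpG-rich starts were fewer in the NTG-only set than among shared promoters. They made up 846 of 1567 regions (54.0%, 51.5 to 56.4), against 82.1% (81.3 to 82.8) of the regions of all 3 lists, a difference of -28.1 points (-30.7 to -25.5). The share was 60.8% (58.2 to 63.4) for siINO80#1 alone and 48.0% (43.5 to 52.6) for siINO80#2 alone, so that NTG alone lay between them. The differences of NTG alone were -6.84 points (-10.4 to -3.22) from the first and 5.95 points (0.75 to 11.1) from the second. The regions in both siINO80 lists had 53.3%, which differed from NTG alone by 0.66 points (-5.21 to 6.58).

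The shares were also taken within bands of strength. Between percentiles 25 and 50 of the list, CpG-rich starts made up 49.4% (44.8 to 53.9) of 466 NTG-only regions and 74.9% (71.4 to 78.1) of 657 regions of all 3 lists. In the same band 41.2% (36.8 to 45.7) and 64.2% (60.5 to 67.8) of summits lay within 250 bp of the start. Above percentile 50 the shares of CpG-rich starts were 49.3% (42.7 to 56.0) of 213 and 82.9% (82.1 to 83.7) of 8302. That upper band is wide, and shared regions lie higher in it than NTG-only regions do, as the plot of strength shows. The strength of a region of all 3 lists is that of its strongest NTG peak, ranked within the NTG list.

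Within the NTG-only set, CpG content differed between tiers. CpG-rich starts made up 73.7% of the 665 regions whose window also held a siINO80 peak, 19.3% of the 327 with a siINO80 peak at another start and 51.0% of the 575 with none. The order was the same for siINO80#1 alone (74.9%, 25.4% and 60.4%) and siINO80#2 alone (68.0%, 15.3% and 32.7%). This pattern was thus shared by all classes found in 1 list.

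The 200 bp around each summit were searched on both strands for 12 motifs as fixed words. A match describes the letters only. AP-1, the dimer of FOS and JUN proteins, binds TGAGTCA (its other strand reads TGACTCA). To show what these words look like at promoters found in 1 list, the 2 strongest regions of each class with the word in a stretch outside annotated exons are given, passing over the same chromosome and summits whose 31 bases occurred at more than 1 place. They are read 5′ to 3′ on the strand of the gene (GRCh37), with the word in capitals.
ATP6V1A, NTG alone, chr3:113488505-113488625, plus strand: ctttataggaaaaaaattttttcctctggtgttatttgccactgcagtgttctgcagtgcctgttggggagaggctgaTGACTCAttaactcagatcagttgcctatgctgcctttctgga
LSM14A, NTG alone, chr19:34663020-34663140, plus strand: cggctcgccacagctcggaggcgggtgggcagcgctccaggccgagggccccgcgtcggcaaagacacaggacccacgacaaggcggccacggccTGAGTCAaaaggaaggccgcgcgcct
ITLN1, siINO80#1 alone, chr1:160854545-160854609, minus strand: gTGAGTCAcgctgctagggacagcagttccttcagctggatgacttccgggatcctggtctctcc
IQCF1, siINO80#1 alone, chr3:51936464-51936584, minus strand: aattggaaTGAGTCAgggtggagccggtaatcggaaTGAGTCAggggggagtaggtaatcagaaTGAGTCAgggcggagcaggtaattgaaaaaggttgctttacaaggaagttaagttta
IL31RA, siINO80#2 alone, chr5:55147113-55147184, plus strand: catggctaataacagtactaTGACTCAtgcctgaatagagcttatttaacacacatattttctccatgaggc
MKKS, siINO80#2 alone, chr20:10400346-10400466, minus strand: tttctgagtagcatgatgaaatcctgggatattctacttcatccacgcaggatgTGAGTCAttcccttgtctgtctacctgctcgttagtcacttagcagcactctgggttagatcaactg

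The AP-1 word stood in 55 of 1567 NTG-only promoter regions (3.51%, 2.71 to 4.54), against 4.34% of all promoter regions. It stood in 80 of 1320 regions of siINO80#1 alone (6.06%, 4.90 to 7.48) and in 33 of 458 of siINO80#2 alone (7.21%, 5.18 to 9.95). NTG alone was lower than the first by 2.55 points and than the second by 3.70 points, with intervals that excluded 0 (NTG minus siINO80, -4.18 to -0.996 and -6.55 to -1.42). In the regions of both siINO80 lists the share was 16.4% (12.8 to 20.7), or 54 of 330 regions. Their median percentile, taken in the siINO80#1 list, was 36.5. The share in all 3 lists, taken over every strength, was 3.78%, within counting error of NTG alone. It was higher among the weaker regions of all 3 lists, as given below. The AP-1 contrast over all regions of these lists was known when the promoters were chosen, so that these shares are no independent support for it.

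The AP-1 share of NTG-only regions changed little with strength. It was 3.72% below percentile 25, 3.43% from 25 to 50 and 2.82% above 50. For siINO80#1 alone it was 5.80%, 6.42% and 6.37%. For siINO80#2 alone it was 6.44%, 6.98% and 14.7%, the last being 5 of 34 regions. The median GC content of the 200 bp was 57.0% for NTG alone, 59.5% for siINO80#1 alone, 50.2% for siINO80#2 alone and 65.5% for all 3 lists, and the part of base composition in the motif shares was not tested.

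Words common at housekeeping promoters were sparse in the NTG-only set. The SP1 word GGGGCGGGG stood in 77 regions (4.91%), against 12.5% of all promoter regions and 14.7% of those of all 3 lists. The NFY words CCAATCA and CCAATGA stood in 62 (3.96%), against 9.51% of all and 12.5% of all 3 lists, and the ETS word CCGGAAGT in 11 (0.70%), against 4.35% and 5.89%. The NRF1 word GCGCATGC stood in 10 (0.64%) and the YY1 word AAGATGGCG in 3 (0.19%), against 2.96% and 1.90% of the regions of all 3 lists. The SP1 word stood in 8.18% of siINO80#1 alone, above NTG alone, and in 3.93% of siINO80#2 alone. For NFY, ETS, NRF1 and YY1 the other classes found in 1 list had similarly low shares. The NFY words stood in 4.02% of siINO80#1 alone and 3.06% of siINO80#2 alone, the ETS word in 1.29% and 1.31%, and the intervals of the differences from NTG alone included 0 for NFY, ETS, NRF1 and YY1. YY1 is itself a subunit of the INO80 complex. The word TATAAA was the reverse, at 90 regions (5.74%, 4.70 to 7.01) against 3.28% of all and 2.28% of all 3 lists, a difference of 3.46 points from the last (2.37 to 4.76). The TATA share of siINO80#1 alone was 5.83% (NTG minus siINO80#1, -0.09 points, -1.84 to 1.61) and that of siINO80#2 alone 8.30% (NTG minus siINO80#2, -2.55 points, -5.62 to -0.02).

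Liver words were rare in all classes. The FOXA word TGTTTAC stood in 40 NTG-only regions (2.55%, 1.88 to 3.46) and the HNF4A word CAAAGTCCA in 10 (0.64%, 0.35 to 1.17). In siINO80#1 alone these shares were 2.12% and 0.30%, and in siINO80#2 alone 3.28% and 0.44%, all within counting error of NTG alone. The SP1 share of siINO80#1 alone (8.18%) exceeded that of NTG alone by 3.27 points (NTG minus siINO80#1, -5.14 to -1.46).

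**Figure D5:**
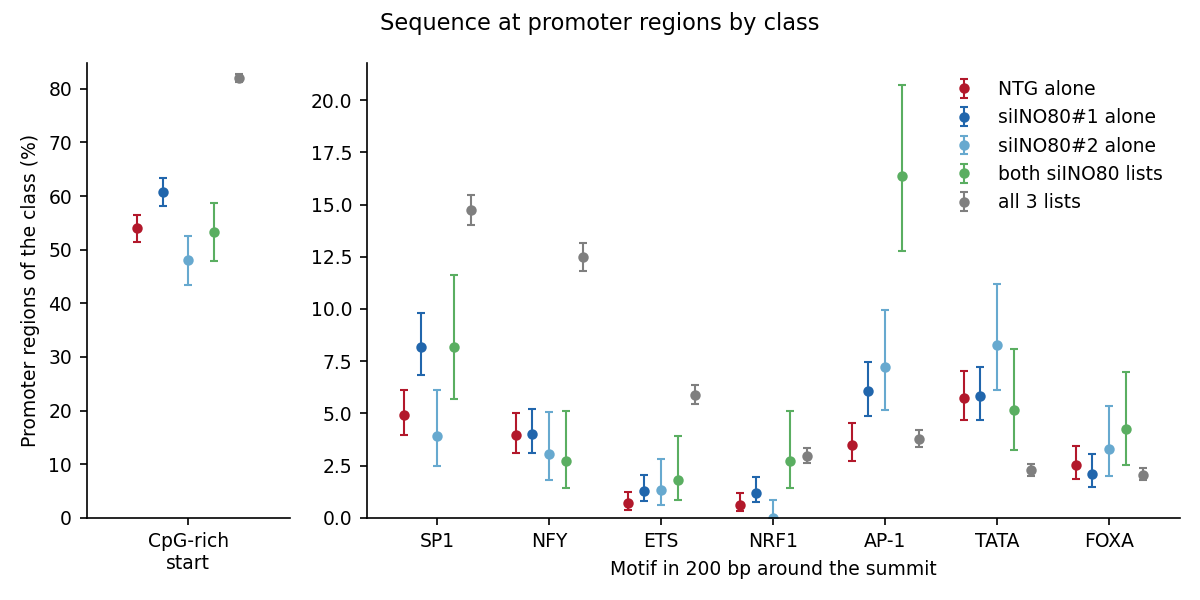
Share of promoter regions of each class (vertical axes, percent, both from 0 and of different scale) at a CpG-rich start (left) and with a motif word in 200 bp around the summit (right), with 95% Wilson intervals as error bars. NTG alone has 54.0% CpG-rich starts against 82.1% in all 3 lists, and 3.51% AP-1 words against 16.4% in both siINO80 lists.

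Of the gene lists, hepatocyte markers came first. NTG-only regions lay at 4 of 19 (ALB, APOC3, HNF4A and TTR), against 8.18% of all genes, and siINO80#1-only and siINO80#2-only regions at 3 and 1. At APOC3, an apolipoprotein, the NTG-only peak had a fold enrichment of 2.56 (33 reads), and siINO80 peaks lay 199 and 322 bp away in the same window. At ALB, which encodes albumin, it was 3.53 (16 reads), with siINO80 peaks 1167 and 1202 bp away. HNF4A, the nuclear receptor, had 2 NTG-only regions of 2.22 and 1.92 at coding starts other than those with siINO80 peaks. TTR, which encodes transthyretin, had 2.57 at 12 reads, the fewest of any NTG summit. Each of the 4 genes thus had a siINO80 peak at a coding start.

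All 16 INO80 complex subunits had a peak at a coding start in NTG and siINO80#1 and 15 in siINO80#2. INO80C and ACTB, the latter encoding beta-actin, had NTG-only regions, of 2.91 (13 reads) and 3.46 (29 reads), and both genes also had siINO80 peaks. Of the 25 markers of other cell types, PDGFRB of mesenchymal cells had one, of 2.10, with siINO80 peaks 193 and 261 bp away.

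Other families were counted in the same way. Solute carriers had NTG-only regions at 45 of 371 genes (12.1%), among them SLC38A4 and SLC14A1, and siINO80#1-only regions at 36 (9.70%). Channels had them at 11 of 132 (8.33%), with KCNK2 (4.18) and CACNB2 (4.15) the strongest, and siINO80#1-only regions at as many. Developmental factors of the HOX, PAX, SOX, LHX, NKX and TBX families had them at 8 of 100, with TBX18 (3.55) and NKX6-3 (3.26) the strongest. Cytochromes P450 had them at 5 of 56 (8.93%). CYP8B1, the sterol hydroxylase of bile acid synthesis, was one, with 3.20 (19 reads) at a summit 22 bp from its start. Neither it nor CYP19A1, the aromatase (3.25, 23 reads), had a siINO80 peak at a coding start. The nearest were 5127 bp from the CYP8B1 peak and 3214 bp from that of CYP19A1.

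The remaining families all had shares below 8.18%. Olfactory receptors had NTG-only regions at 10 of 387 genes (2.58%), with OR4N2 (3.74) and OR6J1 (3.42) the strongest, and 364 of these genes had no peak in any list. Keratins and keratin-associated proteins had them at 4 of 149 (KRTAP2-2, 2.63, and KRTAP29-1, 2.54, among them) and protocadherins at 2 of 63 (PCDHB6, 3.32, and PCDHGB7, 2.57). Zinc finger genes named ZNF had them at 28 of 500 (5.60%), of which ZNF124 and ZNF638 (4.93) were the strongest, and siINO80#1-only regions at 41 (8.20%). Histones had them at 4 of 77 (H2AC16 with H1-5 in 1 window, 2.61, among them). Interleukins and their receptors had them at 3 of 78 (IL21R, 3.14, and IL20RA, 2.36, among them). Ribosomal proteins had them at 3 of 93 (RPS27, 2.65, and RPL29, 2.39, among them), respiratory chain subunits at 2 of 91 (COX7A2L, 2.13, and ATP5ME with MYL5 in 1 window, 2.06) and proteasome subunits at 3 of 38 (PSMD4, 3.14, and PSMC2, 3.08, among them). These counts are small, and none is set apart from the background of 8.18% by a test.

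By chromosome, the NTG-only share of promoter regions ranged from 7.69% (5.70 to 10.3) on chromosome 14 to 17.8% (13.6 to 22.96) on chromosome 22. Chromosomes 16 (14.4%, 11.9 to 17.4) and 17 (13.9%, 11.6 to 16.6) were also above the 10.7% of all, with intervals that excluded it. Other chromosomes above it, such as 20 (12.4%, 9.52 to 15.9), had intervals that included it. Chromosomes 5 (7.80%, 6.08 to 9.95) and 14 lay below it, with intervals that excluded it. On chromosomes 22, 16 and 17, regions of siINO80#1 alone numbered 34 of 258, 61 of 625 and 90 of 726, against 8.99% of all promoter regions. Those of siINO80#2 alone numbered 5, 16 and 27, against 3.12%. Chromosomes 2, 6 and 14 held 17.2% of NTG-only regions and 24.9% of those of siINO80#2 alone, a difference of -7.66 points (-12.2 to -3.44). They held 18.2% of those of siINO80#1 alone (-0.95 points, -3.77 to 1.83).

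At the edge of the rule, members and non-members were alike. The NTG peak at SLC16A9 was a member with a siINO80#1 peak 1 bp away (fold enrichment 2.86), and that at DYNLRB1 with a gap of 3 bp (2.81). ITGA9 (3.46) and POU5F2 (2.70) were just outside, since their NTG peaks overlapped a siINO80 peak by 1 bp. The regions at SOX5 and FBXO5 reached the start window by 2 and 4 bp, with fold enrichments of 2.73 and 2.07. Those at KLF7 and FXR1 missed it by 5 and 7 bp, with 2.73 and 3.66.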

How the data were processed

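ATAC-seq peak lists of HepG2 cells were used as the authors deposited them, 1 per siRNA for its 3 replicates. The submitters' processing notes name Trim Galore 0.4.1, Bowtie2, SAMtools, MACS2, deepTools 2.2.4 and the build hg19; settings, the shift of reads for the transposase and the filter behind the lists are not given in the sources used here. In the deposited lists the fold enrichment is a ratio of summit to local background, the p and q are −log10 values, the score is 10 times the −log10 q as a whole number, and the lowest −log10 q was 1.30. The summit position within each interval was also taken from them. Percentiles of fold enrichment were taken within 1 list; fold enrichments and reads of different lists are given side by side and were not tested as signal between lists.

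Intervals of the 3 lists on chromosomes 1 to 22 were merged where they overlapped (distance 0) and put in classes by the lists with a peak. Promoter regions overlapped 1000 bp either side of 75499 start positions of protein-coding transcripts of 18893 genes (GENCODE release 44 on GRCh37). The NTG summit with the highest fold enrichment stood for each region with an NTG peak. Other regions took the strongest summit of siINO80#1 or, without one, of siINO80#2. Reads at the summit were solved from fold enrichment and −log10 p, with an error of at most 0.000246 in −log10 p. Solving failed at 7, 17 and 6 intervals whose p was beyond the numerical range. Depth per list is thus known only relatively, and the replicates cannot show its spread. The members and gene lists were chosen with earlier results of these data known, and the proteasome list was narrowed after seeing a wrong match. Named genes were the 10 strongest members by fold enrichment, the 10 strongest with no siINO80 peak at the gene, all members of the hepatocyte, other cell type and INO80 complex lists, up to 2 per other family (one of them is not reported here), the 3 strongest of each siINO80-only class and the regions at the edge of the rule; sequences are those of the strongest members left by the limits given beside them. Gene names of a region are those of its nearest coding start unless stated. Read recovery, merging, start windows and the search for copies were tested on simulated data and recovered in 100% of cases. Alternatives changed the q threshold, list size, merging distance, window, starts, summit rule, chromosomes and copies. The tools were bedtools 2.31.1, numba 0.67.0, pysam 0.24.0, matplotlib 3.10.9, scipy 1.17.1, pandas 2.3.3, numpy 2.4.6 and Python 3.11.15.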

Additional observations from a re-analysis of the deposited data

Results flagged for a closer look

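For 7 features of promoter regions found in 1 list, the difference from NTG alone was examined for each siRNA against INO80, and at 5 of them the siRNAs stood on opposite sides of NTG alone. Both differences exceeded counting error for CpG-rich starts alone; at the other 4 at least 1 of the intervals included 0. The share of CpG-rich starts was higher in siINO80#1 alone by 6.84 percentage points and lower in siINO80#2 alone (-5.95). Summits within 250 bp of a start were 7.29 points more frequent in siINO80#1 alone and less frequent in siINO80#2 alone (-4.34). The SP1 word differed by 3.27 and -0.98 points, summits in introns by -6.05 and 2.48 points, and summits upstream of the start by 1.66 points for both, with opposite sign (1.66 and -1.66). Whether the siRNAs differ was not tested, since each had 1 list. The AP-1 word was more frequent in both siINO80 classes than in NTG alone, by 2.55 and 3.70 points. The TATA word differed by 0.09 and 2.55 points, the first within counting error.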

How the results depend on the processing

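Each of 8 results was recomputed under 8 alternatives, of which the removal of regions with copies was chosen after seeing the data; 37 of 64 values stayed within 1.5 times the reported count or within the interval of the reported share, and 27 moved. With lists of equal size (52399 intervals), NTG alone held 978 regions, siINO80#1 alone 763 and siINO80#2 alone 840, so that the order of the siINO80 classes turned and the NTG share of regions found in 1 list was 37.9% in place of 46.8%. With a −log10 q of at least 5 the numbers were 805, 758 and 136. Merging within 500 bp gave 811 for siINO80#1 alone, 268 for siINO80#2 alone and an NTG share of 49.3%. The share of NTG-only regions whose gene had a siINO80 peak (63.3% as reported) was 32.4% at the stricter q, 51.7% at equal size, 47.7% after merging within 500 bp, 55.6% with a window of 500 bp and 70.5% with the starts of every transcript of coding genes. The median percentile (22 as reported) was 14.8, 24.3 and 24.3 at the stricter q, at equal size and after merging. The share at CpG-rich starts (54.0% as reported) was 65.2% at the stricter q, 44.5% after merging, 51.4% with the narrower window and 40.6% with every transcript. The share within 250 bp of a start (40.6% as reported) was 58.9%, 47.4%, 46.7% and 57.5% at the stricter q, at equal size, after merging and with the narrower window, and 43.7% where the summit had to lie in the window. The cause of these shifts was not tested. Leaving out chromosomes 2, 6 and 14, or regions with copies, moved none of the 8. No paired analysis was possible because the lists used here hold no values per replicate (the 3 replicates of an siRNA share 1 list), and for the same reason no replicate could be left out. With a median of 19 reads at the summit, absence of a peak from a list is not absence of open chromatin.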
